A study of Mus musculus with 30 samples.

Results

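The cell cycle and DNA replication genes described here are 42 of the 23060 gene symbols in a table of mouse RNA-seq values, and were taken by symbol from a fixed list. They comprise 16 S phase genes, 23 mitosis genes and 3 transcriptional regulators of both, E2f1, Mybl2 and Foxm1. All 42 were in the table and all passed the filter on low values. The measured quantity is FPKM, the sequenced fragments of a gene scaled by transcript length and by the mapped fragments of the library. Differences were taken on the log2(FPKM + 1) scale, which understates the change of genes with low values.

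A dividing cell copies its genome in S phase and separates the copies in mitosis. E2F transcription factors switch on the genes for origin licensing, nucleotide supply and the replication fork ahead of S phase, while MYBL2 and FOXM1 act with the MuvB complex on the mitotic genes later in the cycle. Resting cells hold both sets down through the RB family of pocket proteins and the DREAM complex. Long-term haematopoietic stem cells are known for being mostly quiescent, as are circulating naive lymphocytes, while mature granulocytes no longer divide.

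The series set cells that arise from adult endothelium converted to a haematopoietic fate beside native ones. LKS-SLAM cells, a bone marrow fraction enriched for haematopoietic stem cells, gave 3 control libraries annotated as wild type and 3 libraries titled rEC and annotated as derived. The same 2 origins were sampled in blood. Control and rEC libraries numbered 2 and 2 for myeloid cells sorted as Gr1+ Cd11b+, 3 and 3 for B220+ B cells, 2 and 2 for CD4 T cells, and 3 and 3 for CD8 T cells. All of these were annotated as freshly isolated. In addition, 3 libraries came from adherent cells of the FGRS culture on day 28, annotated as derived and as grown with human umbilical vein endothelial cells. FGRS stands for the conversion factors Fosb, Gfi1, Runx1 and Spi1, and KLS in the titles for Kit+ lineage-negative Sca1+ cells. Every population was sorted by flow cytometry under a purity mask. The second rEC library of the LKS-SLAM cells and that of the B cells bear the name of a clone, 47G1, with the word primary. The word secondary stands in the titles of rEC replicate 3 of both these types, of CD4 rEC replicate 2, and of replicates 2 and 3 of CD8 rEC. LKS-SLAM control replicate 3 and rEC replicate 1 are annotated as long-term stem cells, and the other 4 LKS-SLAM libraries and the culture as stem cells. Age and strain are not given in the sources used here, and neither is whether the replicates came from separate animals, so the p-values measure the spread between libraries. The remaining library, B220+ cells titled as clone 47G1 but annotated as wild type, was put in no group.

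Promoter sequences were matched for 34 of the 42 genes in RefSeq windows on GRCm38.p6, which reach from 250 bases before the transcription start to 50 bases from the start on. Sequences are shown for 5 mitosis genes and 2 S phase genes. Cdk1, Ccnb2 and Bub1 are mitosis genes that the results below turn on, Mki67 encodes the usual marker of dividing cells, Kif23 is the mitosis gene that leaves the common pattern in blood myeloid cells, and Mcm6 and Ccne1 stand for an S phase promoter with E2F letters and one without. Each is given 5′ to 3′ on the strand of the gene, from 120 bases before the start, with matches in capitals. The letters searched on both strands were TTTGAA or TTCGAA, the cell cycle homology region (CHR) that MuvB complexes are known to bind. CCAAT, which reads ATTGG on the other strand, is the box bound by NF-Y, and TTTCCCGC, TTTCGCGC, TTTGCCGC or TTTGGCGC are E2F letters. Overlapping matches were each counted.
Cdk1 (chr10:69352883-69353032, minus strand): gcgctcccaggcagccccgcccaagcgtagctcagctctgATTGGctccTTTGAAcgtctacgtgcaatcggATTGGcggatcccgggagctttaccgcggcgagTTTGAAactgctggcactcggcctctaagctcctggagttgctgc
Ccnb2 (chr9:70421525-70421674, minus strand): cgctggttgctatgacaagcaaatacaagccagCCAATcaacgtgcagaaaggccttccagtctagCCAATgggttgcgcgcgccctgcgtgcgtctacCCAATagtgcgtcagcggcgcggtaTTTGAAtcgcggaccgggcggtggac
Bub1 (chr2:127831830-127831979, minus strand): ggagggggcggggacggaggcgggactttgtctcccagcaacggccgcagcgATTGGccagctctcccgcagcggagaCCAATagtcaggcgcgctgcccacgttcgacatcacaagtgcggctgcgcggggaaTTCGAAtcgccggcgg
Mki67 (chr7:135716350-135716499, minus strand): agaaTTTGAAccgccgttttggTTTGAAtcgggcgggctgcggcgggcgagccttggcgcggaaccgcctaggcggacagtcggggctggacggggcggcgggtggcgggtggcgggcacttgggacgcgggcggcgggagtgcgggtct
Kif23 (chr9:61946770-61946919, minus strand): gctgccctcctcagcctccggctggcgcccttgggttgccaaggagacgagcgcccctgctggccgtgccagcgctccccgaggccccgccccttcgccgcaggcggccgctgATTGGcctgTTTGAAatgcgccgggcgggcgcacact
Mcm6 (chr1:128359676-128359825, minus strand): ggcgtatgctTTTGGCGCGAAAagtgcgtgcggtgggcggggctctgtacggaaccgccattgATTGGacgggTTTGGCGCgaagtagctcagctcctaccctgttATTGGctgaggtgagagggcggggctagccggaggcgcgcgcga
Ccne1 (chr7:38107461-38107610, minus strand): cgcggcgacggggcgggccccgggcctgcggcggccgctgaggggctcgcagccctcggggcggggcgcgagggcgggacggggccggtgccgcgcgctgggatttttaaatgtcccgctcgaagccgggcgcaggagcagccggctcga

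The S phase and mitosis promoters differed in the letters they held. CHR letters were in 15 of the 19 mitosis windows (78.9%), in 2 of the 14 S phase windows (14.3%, from 13 genes) and in 19.2% of all 32851 promoter windows of the same length. At least 1 CCAAT box was in 89.5% of the mitosis windows, 64.3% of the S phase windows and 37.4% of all windows, and 2 or more were in 63.2%, 35.7% and 11.7%. E2F letters were in 6 S phase windows (42.9%), those of Cdc6, Cdt1, Mcm3, Mcm5, Mcm6 and Mcm7, in 1 mitosis window (5.26%), that of Cdk1, and in 2.27% of all windows. Kif23 held a CHR and a CCAAT box like most of its class. The windows of the S phase genes Ccne1, Tk1 and Tyms held none of the letters. Nor did those of the mitosis genes Birc5 and Nusap1 and of the regulators E2f1 and Mybl2. Within the 150 bases before the start alone, CHR letters were in 6 of the 19 mitosis windows (31.6%) against 9.7% of all. These shares describe letters and not bound sites.

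**Figure D1:**
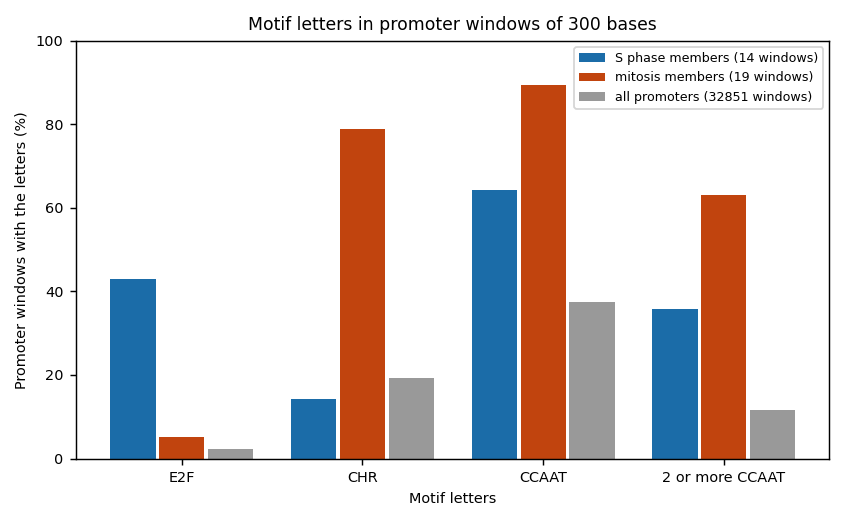
Share of promoter windows of 300 bases (y axis, percent) that held each kind of motif letters (x axis) on either strand, for S phase genes, mitosis genes and all promoters. The mitosis bars reach 78.9% for CHR letters and 89.5% for CCAAT, and the S phase bar reaches 42.9% for E2F letters, where all promoters reach 19.2%, 37.4% and 2.27%.

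Summed FPKM per library ranged from 510115 to 727885, and relative depth, read from the lowest values, from 0.588 to 1.14 of B cell control replicate 2. FPKM carry no counts, so no counting interval can be given. Several libraries stood apart from their labels or groups. LKS-SLAM rEC replicate 2 had a mean log2(FPKM + 1) of 3.34 over 10 stem cell markers, against 5.49 to 6.49 in the other 5 LKS-SLAM libraries, with the stem cell receptor gene Procr at 7.52 FPKM against 72.4 to 154. Klf1, which encodes an erythroid transcription factor, was at 201 FPKM there and at 1.06 to 28.5 in the others. It is 1 of 11 erythroid markers, and the other markers of that list are not given by library here. As a group, however, the LKS-SLAM rEC libraries had lower fitted values than the controls for all 11 erythroid markers. The median log2 difference was -1.30, a value for the group and not for replicate 2 alone. B cell rEC replicate 1 had the T cell receptor chain gene Cd3e at 198 FPKM, against at most 0.393 in the other grouped B cell libraries. LKS-SLAM control replicate 3 had the lowest relative depth, and its 6 eosinophil and basophil markers averaged 2.19 on the log2 scale against 7.22 and 7.59 in the other controls. The FGRS cultures averaged 1.8 to 2.44 over the stem cell markers and 7.88 to 8.86 over 6 neutrophil precursor markers, and their macrophage markers averaged 4.42, 7.62 and 6.85.

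The levels of both classes were highest in culture, intermediate in marrow and lowest in blood, apart from the LKS-SLAM rEC libraries, which spread from 2.77 to 6.09 on the mitosis mean. Averaged over the 23 mitosis genes, log2(FPKM + 1) was 5.58 to 5.72 in the FGRS cultures, 3.69 to 4.79 in the LKS-SLAM controls and 1.02 to 1.70 in all 20 grouped blood libraries. The S phase genes did not follow them evenly. Their mean was 5.95 to 6.31 in the cultures, 5.06 to 5.63 in the LKS-SLAM controls, 3.3 to 3.55 in all lymphocyte libraries and only 1.6 to 1.81 in blood myeloid cells. The S phase mean thus exceeded the mitosis mean by 1.81 to 2.44 in lymphocytes, by 0.65 to 1.63 in LKS-SLAM cells, by 0.33 to 0.59 in the cultures and by 0.55 to 0.78 in myeloid cells, with no test. With a pseudocount of 0.1 in place of 1 the excess in myeloid cells was 1.21 to 1.56, so its order relative to LKS-SLAM cells, at 0.65 to 1.75, depends on the scale.

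**Figure D2:**
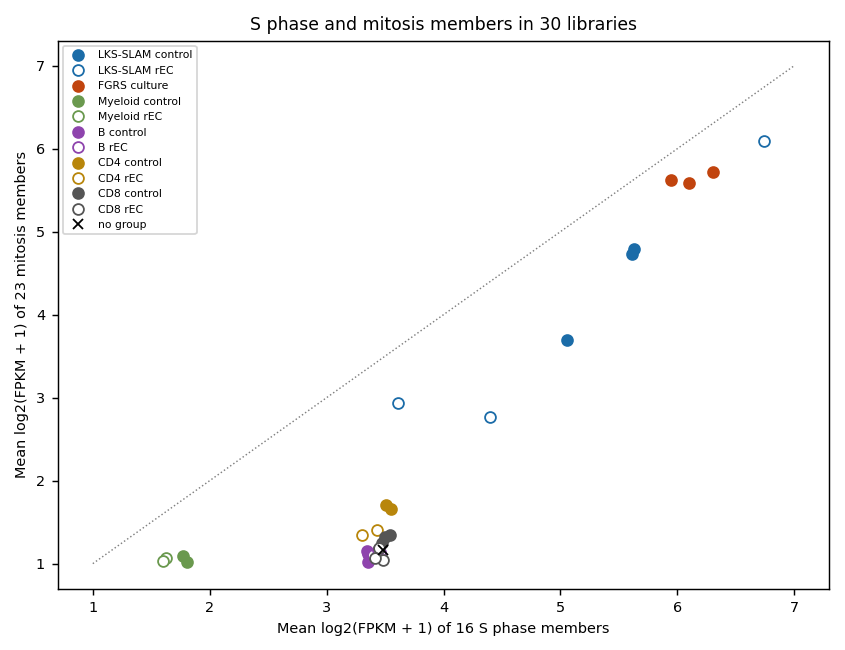
Mean log2(FPKM + 1) of the 16 S phase genes (x axis) against that of the 23 mitosis genes (y axis), 1 point per library, with a dotted line where both are equal. Lymphocytes sit at 3.3 to 3.55 on the x axis and low on the y axis, myeloid cells low on both, and the FGRS cultures and LKS-SLAM rEC replicate 2 at the upper right.

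**Figure D3:**
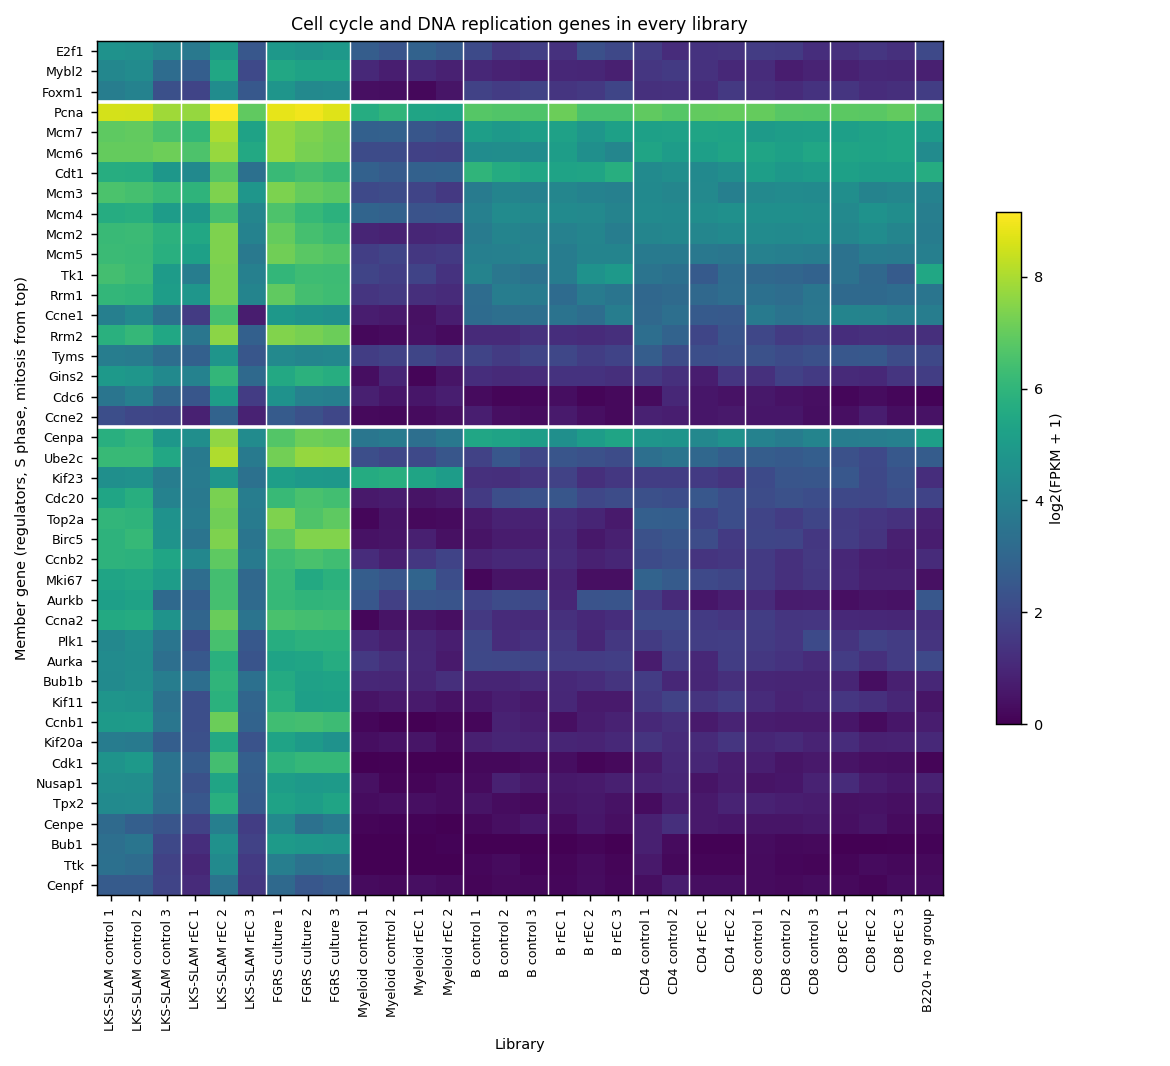
Log2(FPKM + 1) of each of the 42 genes (rows, regulators, S phase and mitosis from the top) in each of the 30 libraries (columns), on a colour scale. Bright columns are the marrow and culture libraries, and the bright mitosis row in the 4 myeloid columns is Kif23.

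In LKS-SLAM cells the rEC libraries did not form a group with respect to these genes. Mki67, the antigen of the proliferation stain Ki-67, was at 40.3, 43.7 and 32.1 FPKM in the controls and at 8.6, 85 and 7.65 in rEC replicates 1 to 3. Cdk1, the mitotic kinase, was at 25, 30.5 and 10.2 in the controls and at 5.21, 84.2 and 5.76. In both genes the clone 47G1 library was above every control and the other 2 rEC libraries were below them. Rrm2, a ribonucleotide reductase subunit, was at 55.6, 68.7 and 42.5 FPKM in the controls and at 11.1, 188 and 6.03 in the rEC libraries. Pcna, the sliding clamp, was at 380, 373 and 232 and at 211, 574 and 119. E2f1 was at 24.3, 23.2 and 17.6 and at 12, 30.9 and 4.59.

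That order held almost throughout the list. Replicate 2 was the highest of the 6 LKS-SLAM libraries for 42 of 42 members (29.4% of all genes tested), by a median of 2.04 times over the next library for S phase genes and of 2.40 times for mitosis genes. The smallest of these ratios was 1.14, for Kif23, and the largest 4.58, for Ccne1. Replicates 1 and 3 were both below all 3 controls for 40 of 42 (14.4% of all genes). The exceptions were Aurkb, at 7.68 in control replicate 3 and 5.79 and 8.02 in rEC replicates 1 and 3, and Foxm1, at 3.76 and then 2.71 and 4.7. Control replicate 3 was the lowest control for 41 of 42 (55.7% of all genes), Mcm6 excepted. Among the S phase genes Ccne1, the cyclin of S phase entry, spread most, from 0.683 FPKM in rEC replicate 3 to 87.4 in replicate 2.

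Under limma 0 of the 42 members were called between rEC and control LKS-SLAM cells at an adjusted p under 0.05, where 1.32% of 14083 genes were (0.071% higher, 1.25% lower), and 0 had an unadjusted p under 0.05. The fitted difference was negative for 41 of 42, with medians of -0.43 for S phase, -0.45 for mitosis and -0.55 for the regulators on the log2 scale, beside -0.05 over all genes. These directions rest on single libraries. Without rEC replicate 3 the S phase median was 0.14, without rEC replicate 1 the mitosis median was 0.10, and without rEC replicate 2 the medians were -1.20 and -1.64. The lowest adjusted p was 0.548, for E2f1 at -0.76 ± 0.38 (SE) and Mki67 at -1.03 ± 0.51. Without the clone 47G1 library, whose stem cell markers also stand apart, 42 of 42 were called lower, with 456 of all genes called higher and 800 lower. A fit with estimated library weights, whose estimation stopped before convergence, also called 42 lower. Of all genes it called 2135 higher and 4105 lower. Granulocyte markers were lower in the rEC libraries as well. Neutrophil precursor markers averaged 4.06, 4.64 and 2.33 on the log2 scale in rEC replicates 1 to 3 and 7.75, 7.64 and 5.85 in the controls, with 4 of 6 called lower, as were 5 of 8 mature neutrophil markers and 3 of 6 eosinophil and basophil markers. The part of these and of the markers of replicate 2 in the result was not tested. In the libraries annotated as long-term stem cells, control replicate 3 and rEC replicate 1, the mitosis means were 3.69 and 2.77. Among the others they were 4.73 and 4.79 for the controls and 6.09 and 2.94 for rEC. In bulk RNA, fewer dividing cells and less of these transcripts per dividing cell cannot be told apart, here and in what follows.

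**Figure D4:**
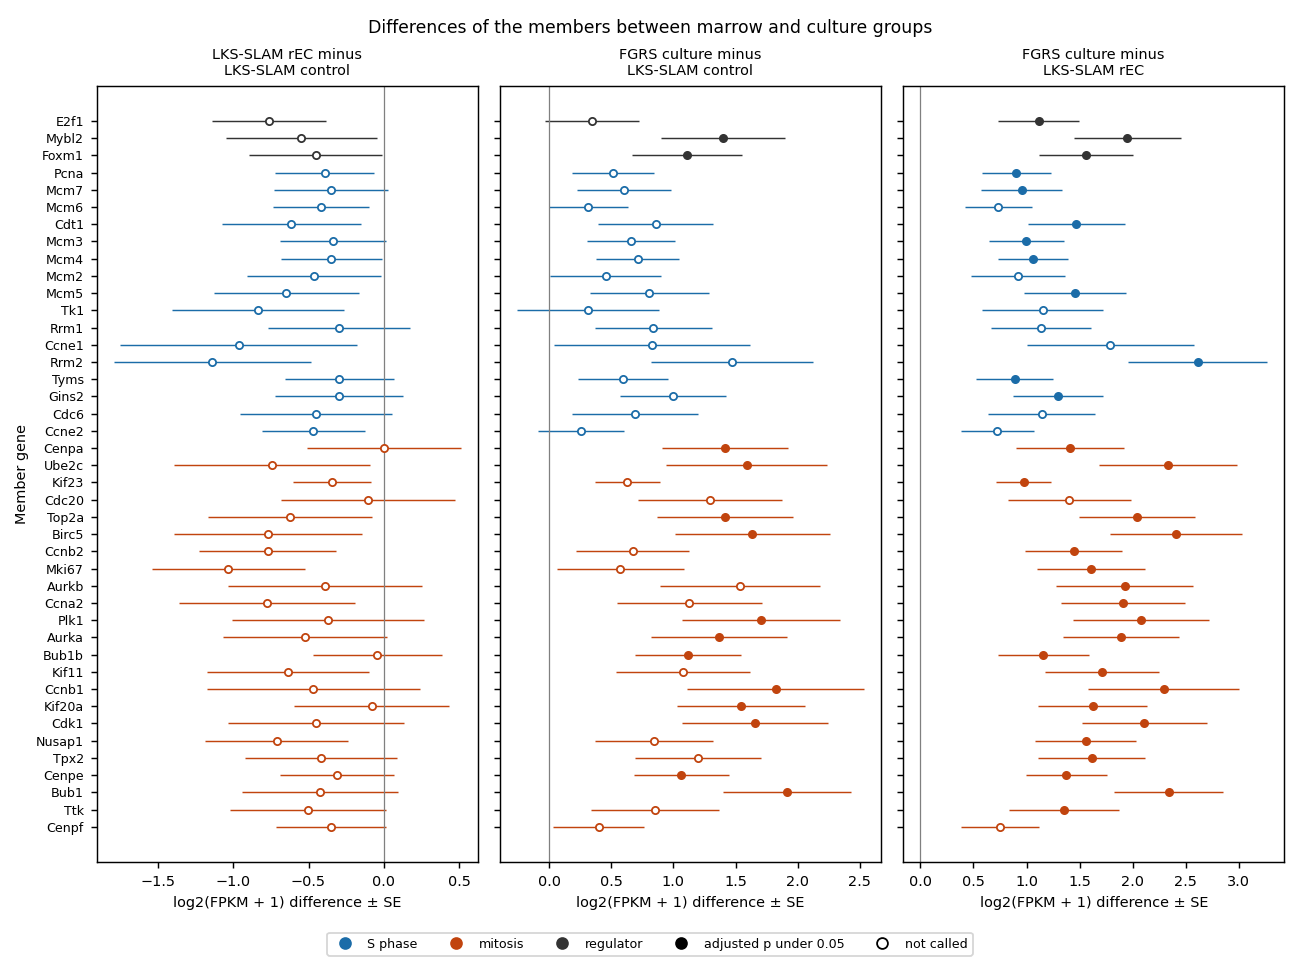
Differences on the log2(FPKM + 1) scale with SE (x axes) for each member (rows) between LKS-SLAM rEC and control cells, and between the FGRS cultures and each of these, with filled points called at an adjusted p under 0.05. In the left panel 0 points are filled, in the middle panel 14 and in the right panel 33.

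The FGRS cultures held the mitosis genes at higher levels than native LKS-SLAM cells. Of the 42 members 14 were called higher and 0 lower, among them 12 of 23 mitosis genes, Mybl2, Foxm1 and 0 of 16 S phase genes. Of all genes 17.1% were called higher and 31.7% lower, 48.8% in all. The medians were 1.30 for mitosis, 0.68 for S phase and 1.11 for the regulators, beside -0.19 over all genes. The difference was positive for 42 of 42 members, and for 37 the groups did not overlap, against 22.4% of all genes that did not overlap with the culture higher.

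The regulators led with Mybl2, at 44.3, 38.2 and 38.1 FPKM in the cultures and 17.9, 20.2 and 8.39 in the LKS-SLAM controls, a rise of 1.40 ± 0.50 (limma adjusted p = 0.0254). Foxm1 was at 26.3, 19.1 and 20.6 and at 13.8, 15.7 and 3.76, a rise of 1.11 ± 0.44 (limma adjusted p = 0.0433). E2f1 was not called, at 28.5, 26 and 28.5 and at 24.3, 23.2 and 17.6, a difference of 0.35 ± 0.38 (limma adjusted p = 0.466). For all 3 genes every culture was above every control.

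Among the mitosis genes the largest rise was that of Bub1, a kinase of the spindle checkpoint. It was at 31.1, 27.9 and 26.7 FPKM in the cultures and at 9.14, 11 and 2.96 in the controls, a difference of 1.91 ± 0.52 (limma adjusted p = 0.00453). The groups were far apart, with a mean of 28.6 ± 2.27 (SD, n = 3) against 7.69 ± 4.19 (SD, n = 3). Ccnb1, the cyclin partner of Cdk1 in mitosis, was at 80.3, 85.8 and 77.8 in the cultures and at 30.5, 31.9 and 11.1 in the controls (1.82 ± 0.71). Cdk1 itself was at 60, 67.8 and 67.6 in the cultures, against 10.2 to 30.5 in the controls (1.66 ± 0.59).

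Plk1, a kinase of mitotic entry and spindle assembly, was at 51.8, 58.3 and 56.9 in the cultures and at 18.3, 21.9 and 10.8 in the controls (1.71 ± 0.64). Birc5, the survivin subunit of the chromosomal passenger complex, was at 115, 170 and 173 and at 60.1, 70.3 and 25.5 (1.63 ± 0.62). Top2a, the topoisomerase that untangles sister chromatids, was at 168, 98.7 and 116 and at 64.5, 61.3 and 24.4 (1.42 ± 0.55). Control replicate 3 was the lowest library in each of these genes. The other mitosis genes called were Ube2c (1.59), an E2 enzyme of the anaphase-promoting complex, the kinesin Kif20a (1.54), the centromeric histone Cenpa (1.41), the kinase Aurka (1.36), the checkpoint gene Bub1b (1.12) and the kinetochore motor Cenpe (1.07).

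Mki67 was among those not called, at 72, 46.5 and 57 in the cultures and 40.3, 43.7 and 32.1 in the controls (0.57 ± 0.51, limma adjusted p = 0.37), with a narrow gap between the groups. The kinetochore gene Cenpf (0.40) had the smallest difference of the class, with its groups overlapping.

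The S phase genes lay closer to the native level. Mcm2, a subunit of the replicative helicase, was at 126, 87.2 and 75.6 FPKM in the cultures and at 73.1, 74.1 and 59 in the controls (0.45 ± 0.44, limma adjusted p = 0.417). Mcm5 was at 142, 113 and 101 and at 75.6, 72.6 and 54.3 (0.81 ± 0.48). Pcna was at 457, 495 and 422 and at 380, 373 and 232 (0.51 ± 0.33). In each of these 3 genes every culture was above every control, by a small margin in Mcm2. Rrm2 stood out among the S phase genes by size, at 170, 154 and 138 against 42.5 to 68.7 (1.47 ± 0.65, limma adjusted p = 0.0675). Gins2, a subunit of the GINS helicase cofactor, was at 45.6, 58 and 51.8 against 30.1, 27.4 and 19.5 (limma adjusted p = 0.057). Whether the S phase and mitosis genes differ from each other in this contrast was not tested.

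The count of 14 depends on a few libraries. Without control replicate 3, which leaves the 2 control libraries that carry the same cell type annotation as the cultures, 1 of 42 was called and the medians were 0.88 for mitosis and 0.48 for S phase. Of all genes 1857 were then called higher and 4308 lower. The count of members was 4, 4 and 2 without culture replicates 1, 2 and 3. Of all genes 2297 were called higher and 4446 lower without culture replicate 1. Without culture replicate 2 these were 1882 and 3640, and without culture replicate 3 they were 1903 and 3688. The count of members was 36 without LKS-SLAM rEC replicate 2 and B cell rEC replicate 1, which enter this contrast only through the pooled spread. Of all genes 3275 were then called higher and 5387 lower. With every library centred on its median the count was 23, the all-gene median moved from -0.19 to 0.14, and the split of all genes called moved from 2411 higher and 4459 lower to 3968 and 2926. The members' medians were then 1.63 for mitosis and 1.01 for S phase. Neutrophil precursor and macrophage markers are high in the same cultures, and their part in the result was not tested.

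Against rEC LKS-SLAM cells the cultures had higher fitted values for 42 of 42 members. Of these 33 were called higher (9 S phase, 21 mitosis, 3 regulators), where 17.2% of all genes were called higher and 27.8% lower (45% in all). The medians were 1.62 for mitosis, 1.10 for S phase and 1.56 for the regulators, beside -0.14 over all genes. The S phase median was 0.47 without rEC replicate 3 and 1.94 without rEC replicate 2, and the mitosis median 1.08 without rEC replicate 1 and 2.70 without rEC replicate 2. The largest was Rrm2 at 2.61 ± 0.65 (limma adjusted p = 0.00284), with 170, 154 and 138 FPKM in the cultures between the rEC values of 11.1, 188 and 6.03. Replicate 2 was the highest of the 9 LKS-SLAM and culture libraries for 15 of 16 S phase genes, 18 of 23 mitosis genes and 1 of 3 regulators.

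Of the mitosis genes Birc5 was at 10.6, 169 and 10.8 FPKM in the rEC libraries, below or within the culture range of 115 to 173 (2.40 ± 0.62). Bub1 was at 1.32, 23.6 and 2.48 (2.34 ± 0.52, limma adjusted p = 0.00106), all below the cultures. Ube2c was at 12.8, 270 and 12.6 against 149, 209 and 205 (2.33 ± 0.65). Replicate 2 exceeded every culture in Ube2c but in Bub1 it did not reach them. Ccnb1, at 3.58, 137 and 6.53 in the rEC libraries, differed by 2.29 ± 0.71, and Cdk1 by 2.11 ± 0.59. Mki67, not called against the native cells, was called here at 1.60 ± 0.51 (limma adjusted p = 0.0142).

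Of the S phase genes Cdt1, which loads the helicase at origins, was at 72.4, 85 and 73 in the cultures and 19.4, 103 and 9.35 in the rEC libraries (1.47 ± 0.46). Mcm5 was at 36.4, 165 and 12 in the rEC libraries (1.46 ± 0.48) and Gins2 at 15.6, 66 and 7.77 (1.30 ± 0.43). Mcm4, a further helicase subunit, was at 96.4, 69.9 and 58.7 in the cultures and 27.7, 84.8 and 17.4 in the rEC libraries (1.06 ± 0.33). The regulators Mybl2 (1.95 ± 0.50), Foxm1 (1.56 ± 0.44) and E2f1 (1.11 ± 0.38) were all called. Mcm2 was not (0.92 ± 0.44, limma adjusted p = 0.0971). For all members except Bub1 and Kif23 the groups overlapped, with rEC replicate 2 at or above the lowest culture (12.9% of all genes did not overlap with the culture higher).

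In a fit of these groups alone 0 of 42 were called. The count was 8 without rEC replicate 1, 7 without rEC replicate 3 and 42 without rEC replicate 2. Of all genes 1993 were called higher and 3390 lower without replicate 1. Without replicate 3 these were 1915 and 2756, and without replicate 2 they were 3412 and 5215. This contrast and the one with native cells share the 3 culture libraries.

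**Figure D5:**
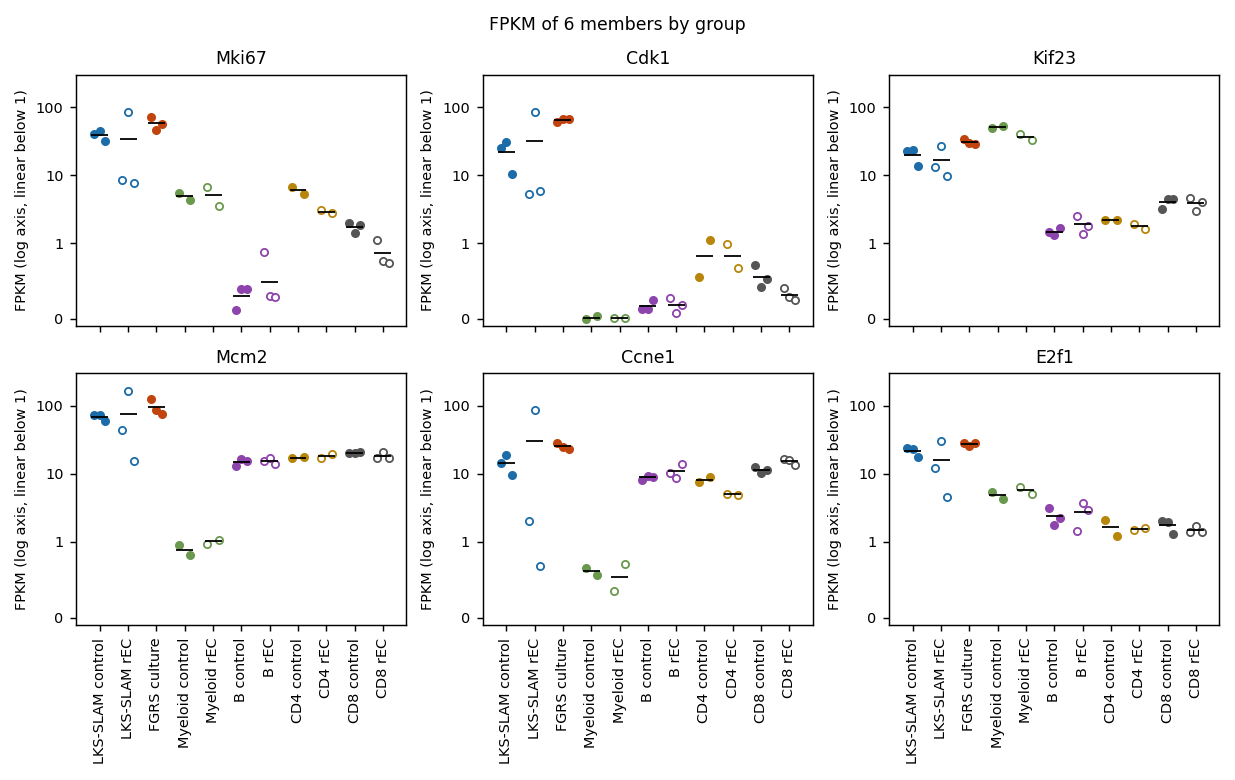
FPKM (y axes, log scale above 1 and linear below) of 6 members in the 11 groups (x axes), 1 point per library with open points for rEC and a bar at the mean. Kif23 is at 32.6 to 53.1 in blood myeloid cells, above its level in LKS-SLAM cells, while Cdk1 is at or under 0.03 there, and Mcm2 lies at 13.1 to 20.9 in lymphocytes.

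In circulating cells nearly all members were lower than in LKS-SLAM controls, in comparisons that share the 3 LKS-SLAM libraries. In blood myeloid controls 41 of 42 were called lower and 1 higher, where 49.1% of all genes were called lower and 17.4% higher (66.5% in all). The medians were -4.02 for S phase and -3.27 for mitosis, beside -0.61 over all genes. Mcm2 was at 0.954 and 0.831 FPKM in the myeloid controls, a difference of -5.20 ± 0.50 (limma adjusted p = 1.24e-08), and Mcm6 at 3.27 and 3.3, against 126 to 142 in LKS-SLAM controls (-4.95 ± 0.35). Rrm2 was at 0.155 and 0.202 (-5.56 ± 0.73), Top2a at 0.131 and 0.413 (-5.22 ± 0.61) and Birc5 at 0.368 and 0.427 (-5.12 ± 0.70). In these 5 genes both myeloid values were far below the lowest LKS-SLAM control. Mcm3, at 3.02 and 3.37, and Mcm5, at 2.26 and 2.68, fell by 4.34 and 4.29. The cyclin genes Ccna2 (0.118 and 0.413 FPKM), Ccnb2 (1.25 and 0.747) and Ccnb1 (0.125 and 0.0378) fell by 4.98, 4.75 and 4.43. Ttk, a checkpoint kinase, was listed at 0 in all 4 blood myeloid libraries. Of the regulators Mybl2 was at 1.1 and 0.718 and Foxm1 at 0.305 and 0.278 FPKM, and each fell by 3.03.

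Kif23 was the single member that rose there. Kif23 encodes the kinesin of the centralspindlin complex that organises the midzone before cell separation. It was at 49.4 and 53.1 FPKM in myeloid controls and at 39.6 and 32.6 in myeloid rEC, against 22.5, 23.6 and 13.7 in LKS-SLAM controls. The difference between the controls was 1.35 ± 0.29 (limma adjusted p = 0.000339), with no overlap. It fell by 3.05 in B cells, 2.68 in CD4 T cells and 2.05 in CD8 T cells. In GENCODE M21 no other gene overlaps Kif23. Mki67 also kept 5.49 and 4.28 FPKM and E2f1 5.47 and 4.27 in myeloid controls, both lower than in LKS-SLAM controls (-2.75 ± 0.57 and -1.95 ± 0.42), while Cdk1 was at 0 and 0.03.

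In B cells 39 members were called lower and 0 higher, where 36.7% of all genes were called lower and 18.9% higher (55.6% in all). The medians were -2.07 for S phase and -3.28 for mitosis, beside -0.25 over all genes. Mki67 was at 0.12, 0.391 and 0.393 FPKM in the B cell controls (-4.93 ± 0.51), Top2a at 0.553, 0.834 and 0.859 (-4.75 ± 0.55) and Cdk1 at 0.133, 0.135 and 0.245 (-4.16 ± 0.59). All 3 of these mitosis transcripts were under 1 FPKM. Birc5, at 0.384, 0.635 and 0.65, fell by 4.97, Ccnb2, at 0.888, 1.08 and 1.07, by 4.73, and Rrm2, at 1.16, 1.13 and 1.49, by 4.62. By contrast Mcm2 was at 13.1, 16.7 and 15.4 (-2.12 ± 0.44), Mcm5 at 14.7, 14.8 and 16.1 (-2.07 ± 0.48) and Pcna at 106, 102 and 98.1 (-1.64 ± 0.33). Mcm6, at 20.7, 21.4 and 21.2 (-2.59), and Mcm3, at 13.1, 16.6 and 15.4 (-2.41), fell more, and Gins2 further still, to 1.32, 1.11 and 1.24 (-3.56). The regulators fell too, E2f1 to 3.13, 1.79 and 2.23 (-2.75), Mybl2 to 1.02, 0.832 and 0.696 (-3.08) and Foxm1 to 2.49, 2.07 and 2.49 (-1.66).

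Mcm2, Mcm3, Mcm5, Mcm6 and Pcna were thus lower in B cells than in marrow but above the 5 mitosis genes just named. The members not called were Cdt1, Cenpa and Ccne1. Cdt1 was at 62.6, 48.9 and 42.2 FPKM in B cell controls and 51.5, 50.6 and 28.1 in LKS-SLAM controls (0.27 ± 0.46), and Cenpa at 41.6, 38.7 and 32.9 against 53.4, 64 and 27.5 (-0.27 ± 0.51), with overlapping groups in both. Ccne1 was at 8.13, 9.3 and 9.16 against 14.7, 19.1 and 9.65 (-0.60 ± 0.79), just without overlap. Cdc6, which loads the helicase with Cdt1, was by contrast at 0.211, 0.101 and 0.121 in the same libraries (-3.34 ± 0.51).

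T cells gave a similar picture. In CD4 T cell controls 39 members were called lower and 0 higher (32% of all genes lower, 18.6% higher, 50.5% in all), with medians of -1.88 for S phase and -2.79 for mitosis beside -0.21. In CD8 T cell controls 40 were called lower and 0 higher (33.2% lower, 17% higher, 50.2% in all), with medians of -1.73 and -3.28 beside -0.21. Cdt1 and Ccne1 were not called in either, nor Cenpa in CD4 T cells. Mki67 was at 6.63 and 5.25 FPKM in CD4 controls (-2.51 ± 0.57) and at 1.97, 1.4 and 1.83 in CD8 controls (-3.85 ± 0.51), Top2a at 5.84 and 5.71 and at 2.68, 2.1 and 2.77, and Rrm2 at 8.93 and 6.59 and at 2.9, 2.04 and 2.33. CD4 libraries were thus above CD8 libraries in all 3, a difference that was not tested.

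Ccnb1 was at 1.07 and 1.37 FPKM in CD4 controls (-3.39 ± 0.79) and at 0.615, 0.585 and 0.576 in CD8 controls (-3.87 ± 0.71). Cdk1 was at 0.55 and 1.1 (-3.53 ± 0.65) and at 0.707, 0.42 and 0.532 (-3.76 ± 0.59). Both were low in each T cell type. Ccnb2, the second mitotic B cyclin, had the largest fall of the mitosis class in both, to 3.32 and 3.69 in CD4 (-3.56) and to 1.91, 1.4 and 1.85 in CD8 controls (-4.30). Ccna2 fell to 3.11 and 3.03 (-3.28) and to 2.18, 1.65 and 1.75 (-3.79), Tpx2 to 0.25 and 0.644 in CD4 (-3.53), and Birc5 to 2.76, 2.67 and 1.81 in CD8 controls (-3.85).

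S phase genes split in T cells as in B cells. Mcm2 was at 16.9 and 17.9 in CD4 (-1.91 ± 0.50) and 20.6, 20.1 and 20.8 in CD8 controls (-1.69 ± 0.44), Mcm5 at 12.3 and 12.4 and at 15.2, 14.3 and 13.8, and Pcna at 120 and 107 and at 128, 109 and 108. Gins2 was at 1.87 and 1.43 in CD4 (-3.31) and at 1.39, 2.39 and 1.98 in CD8 controls (-3.18), Cdc6 at 0.218 and 1.02 (-2.88) and at 0.5, 0.377 and 0.308 (-3.05), and Rrm1, the large reductase subunit, at 7.34 and 7.96 (-2.61) and at 9.36, 8.79 and 11.2 (-2.30). Mcm2, Mcm5 and Pcna were thus at 12.3 FPKM or more in these control libraries while Gins2 and Cdc6 were at 2.39 or less. Tk1 was at 10.7 and 9.43 (-2.45) and at 7.48, 7.16 and 6.32 (-2.91). E2f1 was at 2.1 and 1.23 (-3.10) and at 2.06, 1.93 and 1.31 (-3.03), Mybl2 at 1.76 and 1.96 and at 1.22, 0.672 and 0.876, and Foxm1 at 1.42 and 1.5 and at 1.42, 1.17 and 1.51, all 3 called lower in both types.

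No member was called between rEC and native blood cells. Under limma 0 of 42 members were called in myeloid cells (0.227% of all genes called), B cells (0%), CD4 T cells (0.0213%) and CD8 T cells (1.13%), and 0 had an unadjusted p under 0.05 in any of these. SE and p-values use a spread pooled over all groups. The SD of the mitosis mean was 1.87 in the LKS-SLAM rEC libraries and 0.03 to 0.07 in the blood groups. The pooled SE can thus exceed the spread within a blood group. Without LKS-SLAM rEC replicate 2 and B cell rEC replicate 1 the counts were also 0. Of all genes 30 were then called higher and 75 lower in myeloid cells and 0 in B cells. In CD4 T cells these were 7 and 7, and in CD8 T cells 119 and 334. A fit with estimated library weights called 1, 1, 0 and 5. Of all genes this fit called 134 higher and 234 lower in myeloid cells and 123 and 28 in B cells. In CD4 T cells it called 16 and 34, and in CD8 T cells 769 and 995. Without weights the B cell medians were 0.04 for S phase and 0.06 for mitosis, beside 0.03 over all genes. The largest difference was Tk1, thymidine kinase of the salvage pathway, at 13.6, 24.4 and 30.2 FPKM in rEC and 16.1, 11.4 and 9.87 in control B cells (0.78 ± 0.57), where replicates 2 and 3 were above the controls and replicate 1, the library with T cell markers, was not. In myeloid cells 7 of 16 S phase genes, Mcm3 to Mcm7, Pcna and Rrm1, and 3 mitosis genes, Kif23 among them, were lower in rEC without overlap, 10 of 42 in all (28.6% of all genes were). Another 6, the S phase genes Ccne2, Cdt1, Mcm2 and Rrm2 and the mitosis genes Ccnb2 and Bub1, were higher without overlap (15.6% of all genes). Pcna was at 39.8 and 39.2 FPKM against 50.7 and 62.2 (-0.50 ± 0.40) and Kif23 differed by -0.50 ± 0.32. In the same libraries 7 of 7 B cell markers were lower in rEC without overlap, with means of 0.81 and 0.70 against 1.61 and 2.56 on the log2 scale, and their part was not tested.

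In T cells the mitosis genes had lower fitted values in most cases, with none called. In CD4 T cells 15 of 23 were lower without overlap (21.1% of all genes were), with a median of -0.32, and in CD8 T cells 11 of 23 (15.7% of all genes), with a median of -0.20. With a pseudocount of 0.1 these medians were -0.59 and -0.48, and with quantile normalisation the CD8 median was -0.06. Mki67 was at 3.04 and 2.77 FPKM in CD4 rEC against 6.63 and 5.25 (-0.82 ± 0.62) and at 1.1, 0.768 and 0.734 in CD8 rEC against 1.97, 1.4 and 1.83 (-0.55 ± 0.51). Rrm2 was at 2.81 and 4.15 against 8.93 and 6.59 in CD4 (-0.97 ± 0.80) and at 1.31, 1.39 and 1.37 against 2.9, 2.04 and 2.33 in CD8 (-0.53 ± 0.65). Both genes were lower in every rEC T cell library than in any control of that type. In the same CD8 libraries the B cell markers averaged 2.77, 1.2 and 3.17 against 5.91, 5.34 and 4.83 in the controls on the log2 scale, and their part was not tested. In the CD4 libraries 8 of 8 T cell markers had lower fitted values in rEC, 6 of them without overlap, with a median of -0.39. The 5 megakaryocyte markers all had higher ones, with a median of 1.07. No marker of these 2 lists was called, and their part was not tested. An F test of whether the origin difference varied between the 5 cell types called 0 of 42 members (0.277% of all genes, smallest unadjusted p among members 0.267).

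Of further genes of the pathway, 30 other replication genes, 35 other mitosis genes and 10 pocket protein and DREAM genes were examined. In the cultures against native LKS-SLAM cells 3 replication genes were called higher and 1 lower, against the 17.1% higher and 31.7% lower of all genes, so the share called higher was below that of all genes. Dbf4, the activator of the Cdc7 kinase, was at 41.5, 44.2 and 40.8 FPKM against 17.4, 21.5 and 9.17 (1.42 ± 0.38), Cdc45 at 46.5, 45.8 and 47.9 against 22, 27.2 and 10.6 (1.29 ± 0.43), and Dut differed by 1.14. Chaf1b, a histone chaperone subunit, fell by 0.64. Of the other mitosis genes 7 were higher and 0 lower, led by Cks1b (1.49), Ndc80 (1.39), Cdca3 (1.38) and Melk (1.36). The share of mitosis genes called higher was near that of all genes, and the medians of the replication and mitosis lists were 0.47 and 1.04 beside -0.19. Of the pocket protein and DREAM genes 1 was higher and 3 lower, again near the shares of all genes. Rbl2, which encodes the p130 pocket protein of resting cells, was at 14.2, 8.2 and 9.14 FPKM in the cultures and 36.7, 33.7 and 26.6 in the controls (-1.56 ± 0.31, limma adjusted p = 0.000408). E2f5 (-0.95) and Lin37 (-0.50) fell as well, and Tfdp1, the E2F dimer partner, rose by 0.94. Among the LKS-SLAM rEC libraries Rbl2 was lowest in replicate 2, at 11.3 against 32.3 and 48.4, where replicate 2 was the highest of the rEC libraries for every member.

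In myeloid controls 30 of 30 replication genes and 32 of 35 mitosis genes were called lower than in LKS-SLAM controls (49.1% of all genes). The counts were 25 and 31 in B cells (36.7% of all genes), 23 and 28 in CD4 T cells (32%) and 22 and 29 in CD8 T cells (33.2%). Pttg1, which encodes securin, was an exception, at 76.5 and 82.8 FPKM in myeloid controls and 28.8, 28 and 16.8 in LKS-SLAM controls. Cdc25b, a phosphatase that activates Cdk1, was at 71.7, 74.7 and 82.6 in B cell controls against 19.2, 15.6 and 17.9. Smc4, a condensin subunit, was at 155 and 164 in CD4 controls against 55.7, 57.2 and 43.3.

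Over the 29 grouped libraries the members differed in how closely they tracked their own class mean, as Pearson's r of log2 values. The libraries share cell types, so these are descriptions. Cdk1 (0.997) and Ccnb1 (0.996) tracked the mitosis mean most closely, and Kif23 (0.563), Cenpa (0.843), Aurkb (0.925) and Mki67 (0.928) least. In the S phase class Mcm5 (0.992) and Pcna (0.988) were closest and Ccne1 (0.784), Cdt1 (0.788) and Cdc6 (0.866) farthest. Among genes outside the list the closest to the mitosis mean were Esco2 (0.998), Spag5 (0.996), Kif2c (0.996), Ncapg (0.993) and Shcbp1 (0.993), and the closest to the S phase mean Hells (0.990), Tipin (0.988), Smc2 (0.988), Lig1 (0.985) and Rfc4 (0.982). The libraries are not stranded, so for Ccne2, Mcm7, Gins2, Tk1, Ccna2, Kif20a, Cdc20, Ube2c and Nusap1, which overlap another gene of the table in GENCODE M21, some fragments may belong to the neighbour.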

How the data were processed

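TRIzol-extracted, column-purified total RNA gave poly-A selected TruSeq v2 libraries without strand information, sequenced from both ends at 51 bp (Illumina HiSeq), per the labels' protocols. The deposited values are FPKM per gene symbol, made by the authors. The tools named, per the submitters' processing notes, are the aligner TopHat2 2.1.0, the quantifier Cufflinks 2.2.1, the trimmer Trimmomatic 0.36, FastQC 0.11.5 for quality and bcl2fastq 2.17, with the mm10 build. The gene annotation is not given in the sources used here. Libraries were grouped by title.

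From the deposited FPKM, log2(FPKM + 1) was fitted with limma 3.58.1 in R 4.3.3 (eBayes with trend, 2-sided), with 1 mean for each of 11 groups over 29 libraries and 18 residual degrees of freedom. The 14083 genes that reached 1 FPKM in 2 or more libraries entered the test, with Benjamini-Hochberg adjustment at 0.05. Spread is thus pooled over all groups. The fit was tested on simulated data. FPKM carry no counts, so absolute depth is unknown. Relative depth was the most frequent ratio to a reference library among genes under 0.5 FPKM. Promoter letters were searched in Python 3.11.15.

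Members named in full were the up to 5 S phase and 5 mitosis genes with the largest called difference in each comparison, and 11 fixed genes, Mki67, Top2a, Ccnb1, Cdk1, Mcm2, Mcm5, Pcna, Rrm2, E2f1, Mybl2 and Foxm1. Exceptions to a pattern were named after their values were seen. The members and lists were chosen with earlier results of these data known. Alternatives were another pseudocount, other filters, quantile normalisation, median centring, library weights, the 2 groups alone, a replicate block and leaving out each library. The library of no group entered no comparison.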

Additional observations from a re-analysis of the deposited data

Results flagged for a closer look

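In the library of no group, B220+ cells titled as clone 47G1, Tk1 was at 42.8 FPKM, above the 3 B cell controls at 16.1, 11.4 and 9.87 and above the 3 B cell rEC libraries at 13.6, 24.4 and 30.2. It was singled out because this library enters no comparison and its value exceeds the highest control B cell library by a set margin and lies above a set level. Other members also exceeded every control B cell library, without meeting that rule. With 1 library there is no test.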

How the results depend on the processing

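Counts of the 42 members called depended on the LKS-SLAM and culture libraries, and the cause was not tested. For rEC against control LKS-SLAM cells the count of 0 became 42 with library weights (whose estimation stopped before convergence). It ranged from 0 to 42 on leaving out each library. It was 42 without LKS-SLAM rEC replicate 2 and B cell rEC replicate 1 together, an alternative chosen after seeing the data. Of all genes 2135 were called higher and 4105 lower with weights, and 597 and 957 without those libraries. For the cultures against LKS-SLAM controls the 14 became 6 with a pseudocount of 0.1, 7 with no filter, 8 with quantile normalisation, 23 with median centring, 34 with weights, 32 in a fit of the 2 groups alone, 36 without the 2 libraries named, and 1 to 15 on leaving out each library. The count of 14 came with 2411 of all genes called higher and 4459 lower. With a pseudocount of 0.1 these were 2274 and 4303, and with no filter 2523 and 4914. Under quantile normalisation 2944 of all genes were higher and 2864 lower, and with weights 3599 and 6545. They were 2530 and 4146 with the 2 groups alone, and 3275 and 5387 without the 2 libraries named. For the cultures against LKS-SLAM rEC the 33 became 0 with the 2 groups alone, where all genes called fell from 2419 higher and 3916 lower to 538 and 362, and 7 to 42 on leaving out each library. Weights gave 1 member in myeloid cells, 1 in B cells and 5 in CD8 T cells between origins, and 39 in the F test, which gave 21 without the 2 libraries. Between origins more of all genes were also called with weights. The shares of all genes for these F tests are not given here. Members called in a comparison kept their direction under the alternatives run for it, but between rEC and control LKS-SLAM cells, where none was called, the S phase median turned to 0.14 without rEC replicate 3 and the mitosis median to 0.10 without rEC replicate 1. A replicate block for the cultures against LKS-SLAM controls gave 12, losing Aurka and Ube2c, with 2378 of all genes called higher and 4421 lower. Same-numbered libraries of that contrast did not deviate together (correlations of -0.06, 0.07 and -0.09), and those of the myeloid contrast correlated at 0.08. With 2 or 3 libraries in a group this cannot tell whether the numbers are pairs. Blood against LKS-SLAM counts stayed between 36 and 42 on leaving out each library. FPKM under about 1 have the least precision.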

Other observations

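Compared with the 3 B cell controls, the library of no group was above all of them for 4 of 16 S phase genes, Ccne1, Gins2, Tyms and Tk1, and for 9 of 23 mitosis genes, and below all of them for 5 and 3. Of all genes tested 28.7% were above and 14.7% below. The S phase share above and the mitosis share below were near these. The mitosis share above and the S phase share below were larger, with no test. Its class means on the log2 scale were 3.48 for S phase and 1.17 for mitosis, where the B cell controls were at 3.35 and at 1.02 to 1.15.

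The 42 members together made up from 0.0233% to 0.715% of the summed FPKM of a library, the latter in LKS-SLAM rEC replicate 2. That library held the highest value of all 29 grouped libraries for 34 of the 42 members, the cultures for 7 and a myeloid control for 1, Kif23.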
